A study of Mus musculus with 7 samples.

Results

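A pair of mutants of mouse Ago2 was set directly against each other: the library of small RNAs bound to Ago2 with the change K566A and the library bound to Ago2 with the change PGKTP_AAAAA. Both proteins carried a Flag tag and were pulled down from mouse embryonic stem cells whose own Argonaute genes are absent, so the tagged Ago2 was the Argonaute under study. How the tagged protein was brought into the cells, and how many clones were used, are points the labels do not state. The series holds 7 libraries, each the only one of its group: 5 mutants (these 2, with Q548A, R792A_C793A and GKT_GKGT), wild-type Ago2 and a control labelled empty. All mature miRNA names in the deposited table were compared, each counted once by its highest locus, which gave 959 names from 1078 loci. Of these, 642 had counts in both libraries, 47 were at 0 in K566A only, 52 were at 0 in PGKTP_AAAAA only and 218 were at 0 in both. The 346 names whose level, averaged over the pair, reached 10 CPM (counts per 1000000 of the total) were compared by ratio and are called tested. There was 1 library a side, so no difference here has a replicate check, and every interval covers counting error only.

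Argonaute proteins take up a small-RNA duplex, keep 1 strand as the guide and discard the other. A miRNA hairpin yields such a duplex from its 5p and 3p arms, and the arm kept in most cases is called the major arm. The MID domain of Ago2 holds the 5′ end of the guide: K566 is one of the basic residues around the 5′ phosphate, and the loop with the residues PGKTP, named in the other label as changed to alanines, faces the first base of the guide. Bases 2 to 8 of the guide, the seed, pair with target mRNAs.

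The results turn on single miRNAs, on miRNAs that share a seed and on the 2 arms of 1 hairpin. The mature sequences of those members are RefSeq's, from the table of build GRCm38.p6. They were matched by name or, for miR-290-5p, miR-292-5p and the arms of miR-28, by hairpin symbol to names with an added letter a. All are written 5′ to 3′ with the seed in capitals and the first base just before it. The first set holds 3 members of the miR-290 cluster that share a seed and their first 9 bases but differed in their ratios, and the pair miR-92a-3p and miR-92b-3p, which share another seed.
miR-292-5p: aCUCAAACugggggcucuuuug
miR-293-5p: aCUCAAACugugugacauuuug
miR-290-5p: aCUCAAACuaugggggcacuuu
miR-92a-3p: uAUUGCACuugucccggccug
miR-92b-3p: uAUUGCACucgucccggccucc
The second set shows single arms with large ratios in either direction.
miR-148a-5p: aAAGUUCUgagacacuccgacu
miR-302b-3p: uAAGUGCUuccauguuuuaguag
miR-674-3p: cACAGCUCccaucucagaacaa
miR-351-5p: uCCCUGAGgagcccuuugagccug
The third set shows both arms of hairpins whose balance differed. In the first 5 of these pairs 1 arm begins with A and the other with C or G, and in the last 5 pairs 1 arm begins with U and the other with C.
miR-291a-5p: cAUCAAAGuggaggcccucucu
miR-291a-3p: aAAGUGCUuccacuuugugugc
miR-28-5p: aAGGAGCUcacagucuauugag
miR-28-3p: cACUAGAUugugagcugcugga
miR-708-5p: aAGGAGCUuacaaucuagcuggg
miR-708-3p: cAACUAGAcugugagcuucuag
miR-199a-5p: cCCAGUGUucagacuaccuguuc
miR-199a-3p: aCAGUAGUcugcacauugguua
miR-409-5p: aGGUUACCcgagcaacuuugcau
miR-409-3p: gAAUGUUGcucggugaaccccu
miR-15b-5p: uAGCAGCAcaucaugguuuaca
miR-15b-3p: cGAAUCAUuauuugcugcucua
miR-30e-5p: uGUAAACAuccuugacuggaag
miR-30e-3p: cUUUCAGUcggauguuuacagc
miR-30c-5p: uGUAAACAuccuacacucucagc
miR-30c-1-3p: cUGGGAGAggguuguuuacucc
miR-200a-5p: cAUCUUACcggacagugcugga
miR-200a-3p: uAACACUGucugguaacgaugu
miR-200b-5p: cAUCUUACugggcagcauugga
miR-200b-3p: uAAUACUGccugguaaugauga

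The K566A and PGKTP_AAAAA libraries held 14917453 and 24923977 counts, the lowest of the 6 Ago2 libraries, against 49663243 to 94853847 in the other 4. A count of 0 allows up to 3 counts, or 0.201 CPM in K566A and 0.120 CPM in PGKTP_AAAAA. The empty control held 33468 counts, which is 0.224% of the K566A total and 0.134% of the PGKTP_AAAAA total. The miR-290 cluster, a defining cluster of embryonic stem cells, summed to 591947 CPM in K566A and 799941 CPM in PGKTP_AAAAA. Of 21 names on a fibroblast marker list, 3 were at 0 in both libraries, and the list summed to 5561 CPM in K566A and 910 CPM in PGKTP_AAAAA. Of 37 names on a list of differentiated tissue markers, 10 were at 0 in both, and the list summed to 29582 CPM in K566A and 4771 CPM in PGKTP_AAAAA, of which miR-128-3p held 24572 and 3645 CPM. In such bulk samples fewer cells of a type and less RNA per cell cannot be told apart. The part of these other cell types in the results was not tested.

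One miRNA held most of the difference in counts. The miR-290 cluster member miR-292-5p (chr7:3219201-3219222, mm9) took 217022 CPM in K566A and 695384 CPM in PGKTP_AAAAA, or 21.7% and 69.5% of counts. It made up 57.3% to 70.5% of counts in the other 4 Ago2 libraries and 65.6% in the empty control, so K566A stood apart and PGKTP_AAAAA did not. In K566A 4 miRNAs were needed to reach 50% of the counts and 34 to reach 90%, whereas in PGKTP_AAAAA 1 and 17 were enough. Of the 346 tested miRNAs, 281 had a higher CPM in K566A, and the median log2 CPM ratio was 1.81. The lower miR-292-5p share alone, by leaving more of the total to other miRNAs, accounts for 1.36 of it by arithmetic. Ratios are therefore given relative to that median, as log2(K566A/PGKTP_AAAAA) less 1.81, and the plain CPM of both libraries stands beside them.

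On this scale the libraries differed in many miRNAs, in both directions. A miRNA was called when its exact conditional 95% interval lay wholly past a 2-fold difference: 53 were called higher in K566A (15.3% of those tested) and 93 lower (26.9%). With the plain CPM ratio, 225 were higher (65%) and 33 lower (9.54%). Which direction was more common thus depended on the scaling: the total without miR-292-5p gave 93 higher and 75 lower, and median-of-ratios factors over the 6 Ago2 libraries 83 and 79. Plain and median-centred log2 ratios differ by the constant 1.81. All 53 higher calls therefore had to stay higher by plain CPM, and all 33 lower calls by plain CPM had to be among the 93. This overlap was fixed in advance and is no check of the calls. The relative log2 ratios ran from -5.20 for miR-700-3p to 4.09 for miR-194-2-3p, with quartiles at -1.28 and 0.81. The highest value rests on 464 counts in K566A and 13 in PGKTP_AAAAA, and miR-194-2-3p was tested only through its K566A level. Differences beyond 8-fold were in the low direction in 32 miRNAs and in the high direction in 4.

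The 2 libraries also had much in common. For 80 of the 346 tested miRNAs (23.1%) the interval lay wholly within 1.5-fold of the median ratio. Of the 20 most abundant miRNAs of each library 14 were shared, and of the 100 most abundant 77 were. Across the 346 miRNAs, which share library, depth and composition and are not independent, the Spearman correlation between K566A and PGKTP_AAAAA was 0.81. For K566A the coefficient with the other 4 Ago2 libraries ran from 0.74 to 0.81, and for PGKTP_AAAAA from 0.89 to 0.93. PGKTP_AAAAA thus lay nearer to each of those 4 libraries than to K566A.

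**Figure D1:**
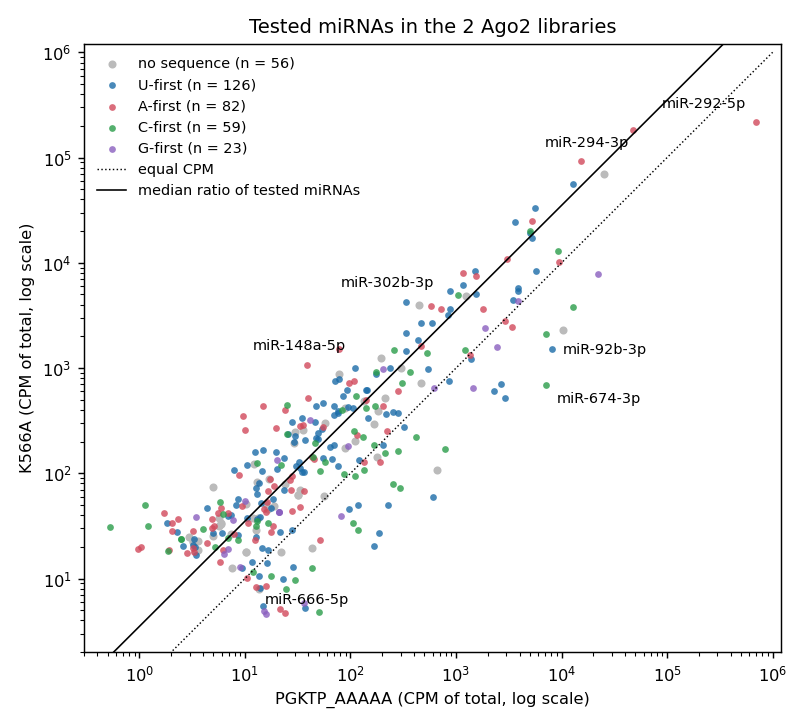
Level of each of the 346 tested miRNAs in PGKTP_AAAAA (x axis) and K566A (y axis), in CPM of the total on log scales, with points coloured by first base. The solid line marks the median log2 CPM ratio of 1.81; miR-292-5p, miR-92b-3p and miR-674-3p lie far below it and miR-148a-5p and miR-302b-3p above it.

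The most abundant miRNAs apart from miR-292-5p kept to the median ratio or near it. The miR-290 cluster member miR-293-3p had 183838 CPM in K566A and 47482 CPM in PGKTP_AAAAA, a relative log2 ratio of 0.14. Its cluster mate miR-294-3p, whose seed is that of the embryonic stem cell cycle miRNAs, had 92661 CPM in K566A and 15295 CPM in PGKTP_AAAAA (0.79). The others were miR-292-3p (-0.33), miR-127-3p (0.32), miR-148a-3p (0.75), miR-541-5p (0.45), miR-128-3p (0.94) and miR-25-3p (0.18), none of them called on this scale. The exception was miR-296-3p, which begins with G, at 7862 CPM in K566A and 22264 CPM in PGKTP_AAAAA. Its relative log2 ratio was -3.31 (95% interval -3.32 to -3.30), the only low call among these besides miR-292-5p (-3.49). Among miRNAs averaging 1000 CPM or more over the pair, those closest to the median ratio were miR-103-3p (-0.01), miR-291a-3p (0.03), miR-26a-5p (-0.10), miR-7a-5p (0.10), miR-423-5p (0.10), miR-92a-3p (-0.12), miR-532-5p (0.13) and miR-293-3p (0.14).

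The largest rises in K566A listed here were mostly arms that begin with A, but most entered the ranking through their K566A level. For miR-409-5p, from the imprinted Dlk1-Dio3 region, K566A held 349 CPM and PGKTP_AAAAA 9.67 CPM, against 72.4 CPM in wild type and 11.4 CPM in GKT_GKGT. The relative log2 ratio was 3.36 (95% interval 3.18 to 3.55). For miR-148a-5p, the minor arm beside the abundant miR-148a-3p, the levels were 1075 CPM in K566A, 38.7 CPM in PGKTP_AAAAA and 194 CPM in wild type (2.98, 2.89 to 3.08). K566A was the highest and PGKTP_AAAAA the lowest of the 6 Ago2 libraries for both of these arms. The minor arm miR-125a-3p had 440 CPM in K566A and 14.8 CPM in PGKTP_AAAAA (3.08). The rest of the 10 largest rises, taken among miRNAs averaging 100 CPM or more over the pair, were miR-365-2-5p (2.86), miR-219-1-3p (2.49), miR-30c-1-3p (2.34), miR-369-5p (2.27), miR-92a-2-5p (1.97), miR-92a-1-5p (1.92) and miR-302b-3p (1.86). The last of these begins with U and miR-30c-1-3p with C, while the other 8 begin with A. Apart from miR-302b-3p, all of the 10 reached the mean of 100 CPM only through K566A, where they were high. The ranking is therefore no support for a difference by first base. miR-302b-3p belongs to a second cluster typical of pluripotent cells and had 4285 CPM in K566A, 336 CPM in PGKTP_AAAAA and 403 CPM in wild type.

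The 10 largest falls, under the same limit of 100 CPM, were all in major arms. The C-first miR-674-3p had 694 CPM in K566A and 7070 CPM in PGKTP_AAAAA, the lowest and the highest level among the Ago2 libraries, with wild type at 1793 CPM. Its relative log2 ratio was -5.16 (95% interval -5.19 to -5.13). For miR-351-5p, a relative of miR-125, K566A held 60.1 CPM and PGKTP_AAAAA 602 CPM (-5.13, -5.23 to -5.04), while the other 4 libraries lay between 445 and 504 CPM. Here K566A stood apart and PGKTP_AAAAA was close to the rest. For miR-92b-3p the levels were 1516 CPM in K566A and 8159 CPM in PGKTP_AAAAA, with the other 4 at 3767 to 5063 CPM (-4.24). The remaining members of the 10 largest falls were miR-877-3p (-4.56), a mirtron arm made without Drosha, miR-328-3p (-4.43), miR-134-5p (-4.30), miR-129-5p (-4.00), miR-339-5p (-3.99), miR-151-3p (-3.98) and miR-770-3p (-3.83). Of the falls, miR-351-5p, miR-877-3p, miR-339-5p and miR-770-3p reached the mean of 100 CPM only through PGKTP_AAAAA, where they were high.

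Major and minor arms were spread differently over the calls. Minor arms, defined by the other 4 Ago2 libraries, made up 98 of the 346 tested miRNAs (28.3%). They were 29 of the 53 higher calls (54.7%) and 21 of the 93 lower calls (22.6%). Their median relative log2 ratio was 0.39, and that of major arms was -0.10. The higher calls include weak minor arms that reached the 10 CPM mean only through K566A, such as miR-183-3p (38.7 and 3.41 CPM) and miR-93-3p (37.1 and 2.33 CPM). The share of minor arms among higher calls is therefore no support for a difference between arms.

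Members of 1 seed family did not always move together. In the family with the seed CUCAAAC, which miR-292-5p, miR-293-5p and miR-290-5p share, the relative log2 ratios were -3.49, -2.26 and 0.54. For miR-293-5p the levels were 2475 CPM in K566A and 3370 CPM in PGKTP_AAAAA, and for miR-290-5p they were 3653 CPM and 715 CPM. Both begin with A like miR-292-5p, so the first base was the same in a member far below the median ratio and in one above it. In the family with the seed AUUGCAC, miR-92b-3p lay at -4.24 while miR-92a-3p (-0.12), miR-25-3p (0.18), miR-363-3p (0.96), miR-367-3p (1.47) and miR-32-5p (-0.42) lay between -0.42 and 1.47. The arms miR-92a-3p and miR-92b-3p are near-identical copies, and how reads that fit both were assigned is not stated in the labels, which leaves their split uncertain. The family with the seed CCCUGAG held miR-125a-5p at -2.02, miR-351-5p at -5.13 and miR-125b-5p at -0.05. In a narrower family, the 6 tested members with the seed AAAGUGC, from the miR-17 family, lay between -0.50 and 0.70, with no call. The 9 tested members with the let-7 seed GAGGUAG had a median of 0.88, with 3 called higher and 0 lower, against 15.3% and 26.9% of all tested miRNAs.

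Read by first base, A-first and U-first miRNAs lay slightly above the median ratio in K566A and C-first and G-first miRNAs below it. A sequence was matched for 290 of the 346 tested miRNAs (83.8%). Of 82 A-first miRNAs 19 were called higher (23.2%) and 15 lower (18.3%), with a median relative log2 ratio of 0.19. Of the U-first miRNAs 17 were higher (13.5%) and 36 lower (28.6%), with a median of 0.27, shares near those over all tested miRNAs. Of 59 C-first miRNAs 10 were higher (16.9%) and 23 lower (39.0%), with a median of -0.50. Of 23 G-first miRNAs 2 were higher (8.70%) and 11 lower (47.8%), with a median of -0.88. On the plain CPM ratio the counts of higher and lower calls were 59 and 3 for A, 87 and 11 for U, 33 and 12 for C, and 8 and 5 for G. Each group was wide, since quartiles ran from -2.42 to 0.52 for C-first and from -0.80 to 1.10 for A-first miRNAs.

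**Figure D2:**
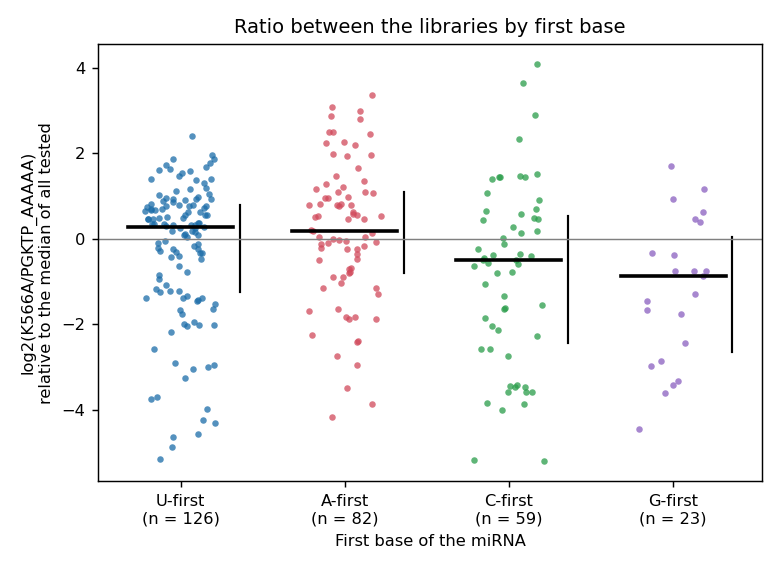
Relative log2 ratio of K566A over PGKTP_AAAAA (y axis) for each tested miRNA with a sequence, by its first base (x axis). Points are miRNAs, thick bars medians (0.27 for U, 0.19 for A, -0.50 for C and -0.88 for G) and thin bars the quartiles; the groups overlap widely.

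Among C-first miRNAs, 17 of the 23 lower calls were in major arms. Of all 93 lower calls 22.6% were minor arms, so this is near the share over all and is no result about C-first miRNAs. For the counts that follow, 15.3% of all tested miRNAs were higher and 26.9% lower. Of all 98 minor arms 29 were higher and 21 lower. Of 35 C-first major arms 1 was higher (2.86%) and 17 were lower (48.6%), with a median of -1.06. Of 24 C-first minor arms 9 were higher (37.5%) and 6 lower (25%), with a median of 0.52. Of 45 A-first major arms 5 were higher (11.1%) and 9 lower (20%), with a median of -0.01. Of 37 A-first minor arms 14 were higher (37.8%) and 6 lower (16.2%), with a median of 0.62. The higher calls among minor arms include weak arms tested only through their K566A level, such as the C-first let-7e-3p and the A-first miR-93-3p. GC content moved with the ratio as well: the median was 0.46 in the 49 miRNAs under 40% GC and -1.65 in the 48 at or above 60% GC, of which 26 were lower. At or above 50% GC the median was 0.52 for 42 A-first miRNAs, -0.32 for 41 U-first, -0.58 for 43 C-first and -1.71 for 14 G-first. Its part in the differences between first bases was not tested beyond this split. By share of counts without miR-292-5p, A-first miRNAs took 47.2% in K566A, 31.9% in PGKTP_AAAAA and 43.0% in wild type. C-first miRNAs took 7.31%, 16.4% and 11.4%, and G-first miRNAs 2.49%, 10.9% and 9.61%, in the same order. Single abundant miRNAs weigh heavily here. The A-first miR-293-3p and miR-294-3p, neither called, had 2742388 and 1382262 of 11680035 such counts in K566A. In PGKTP_AAAAA they had 1183432 and 381219 of 7592243. The G-first miR-296-3p had 117282 counts in K566A and 554908 in PGKTP_AAAAA. The shares are thus no measure of a shift of a whole class.

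The 2 arms of a hairpin come from 1 precursor, so their ratio does not depend on library size. Of 493 hairpins with both arms listed, 331 had at least 100 counts over the pair of libraries. The odds of the minor arm over the major arm were called higher in K566A in 68 (20.5%) and lower in 60 (18.1%), by an exact interval wholly past 2-fold. The median change in log2(minor/major), with 0.5 added to each count, was -0.08, with quartiles at -1.65 and 1.72. With the major arm taken instead from the other 4 Ago2 libraries, 83 were higher and 45 lower, and the median change was 0.20, so the balance of directions depends on how the major arm is defined. The median minor-arm share was 2.47% in K566A and 1.76% in PGKTP_AAAAA. Of the 331 hairpins, 52 share an arm sequence with another copy, which makes the split between copies uncertain.

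Within hairpins, A-first arms more often gained on C-first and G-first arms in K566A relative to PGKTP_AAAAA than lost to them. In 30 hairpins with 1 A-first and 1 C-first arm, the log2 ratio of the A arm to the C arm was higher in K566A in 24, by a median of 0.97. Of these 30, 11 were called up (36.7%) and 3 down (10%). Over all 331 hairpins the 5p odds were called higher in K566A in 20.5% and lower in 18.1%. In 14 hairpins with 1 A-first and 1 G-first arm, the log2 ratio of the A arm to the G arm was higher in 12, by a median of 1.17. Of these 14, 5 were called up (35.7%) and 1 down (7.14%). With 1 U-first and 1 C-first arm, 33 of 55 were higher in K566A (median 0.34), with 11 called up (20%) and 9 down (16.4%). Both shares of calls were near those over all hairpins and are no result about this class. For U over A the median was -0.53 in 52 hairpins (9 up, 17.3%, and 17 down, 32.7%), for U over G -0.34 in 30 and for C over G -0.04 in 12. These smaller medians moved with the setting: C over G was -1.16 in the 7 hairpins with at least 1000 counts, and with 5 added to each count U over C was 0.67, U over G -0.59 and U over A -0.16. A over C stayed between 0.97 and 1.45 and A over G between 1.11 and 2.36 over the settings tried. Some hairpins had 1 arm at 0 in both libraries. Their difference reflects only the counts of the other arm, library size included, and shows no shift between arms. Examples above 0 are miR-881, miR-99a, miR-374 and miR-495, and below 0 miR-344b and miR-203. With both arms above 3 counts in both libraries, 20 of 24 A over C (median 1.23) and 8 of 8 A over G hairpins (2.36) were above 0.

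**Figure D3:**
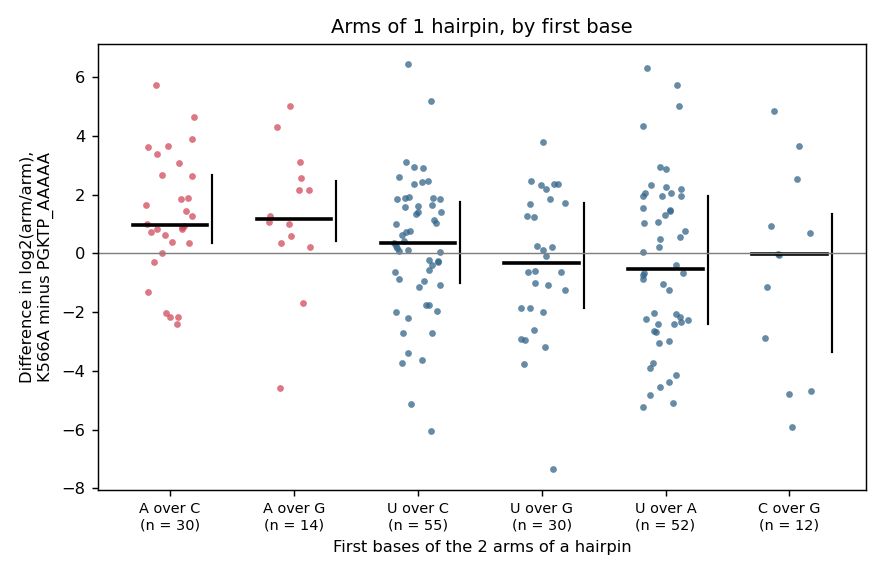
Difference between K566A and PGKTP_AAAAA in the log2 ratio of 2 arms (y axis), 1 point a hairpin, by the first bases of the arms (x axis; in A over C the A-first arm is the numerator). Thick bars are medians and thin bars quartiles. Of the points, 24 of 30 A over C and 12 of 14 A over G hairpins lie above 0, and the other classes straddle it. Some points have 1 arm at 0 in both libraries and show no shift between arms.

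The A-first arm can lie on either side of the hairpin. Where it was the 3p arm, all 13 A over C and all 8 A over G hairpins were above 0. These include hairpins such as miR-103-1 and miR-302c, whose G-first arm was at 0 in both libraries and which show no shift between arms. Where it was the 5p arm, 11 of 17 and 4 of 6 were. The hairpins below 0 were led by miR-181d (-2.40) for A over C and miR-666 (-4.58) for A over G, and those above by miR-129-2 (5.74) and miR-409 (5.03). In a split chosen after the values were seen, the A over C median was 0.92 in the 15 hairpins whose A arm had at least the GC content of the C arm and 1.01 in the other 15, with 12 of 15 above 0 in each. The same split of A over G gave 0.20 in 5 hairpins and 2.15 in 9. For U over A it gave 1.02 in 23 hairpins and -1.04 in 29, so the U over A difference changed sign with the GC content of the arms. Across the 30 A over C hairpins the median level of log2(A arm/C arm) was -1.27 in K566A and -2.57 in PGKTP_AAAAA. It was -0.40 in wild type, -0.14 in Q548A, -1.08 in R792A_C793A and -3.72 in GKT_GKGT, so on this measure K566A lay next to R792A_C793A, and PGKTP_AAAAA lay between K566A and the other loop mutant.

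The hairpin miR-291a (chr7:3218933-3218990, mm9) of the stem cell cluster shows the pattern at depth. Its C-first 5p arm had 31468 counts in K566A and 179317 in PGKTP_AAAAA, and its A-first 3p arm 163230 and 75831. The 5p arm thus took 16.2% of the hairpin in K566A and 70.3% in PGKTP_AAAAA, against 43.8% in wild type and 93.5% in GKT_GKGT. The log2 odds of the 5p arm differed by -3.62 (95% interval -3.64 to -3.60), and wild type lay between the pair. For miR-199a the C-first 5p arm took 42.9% in K566A and 94.97% in PGKTP_AAAAA, with 56.5% in wild type (-4.66). In miR-540, of the Dlk1-Dio3 region, the C-first 5p arm took 6.92% in K566A and 52.3% in PGKTP_AAAAA, and wild type at 6.64% was level with K566A.

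The hairpins miR-28 and miR-708 share the seed of their A-first 5p arms and parted in the same direction. The 5p arm of miR-28 (chr16:24827954-24828015, mm9), in an intron of Lpp, took 70.5% of the hairpin in K566A, 18.7% in PGKTP_AAAAA and 48.99% in wild type (log2 odds 3.37, 3.17 to 3.58). That of miR-708 (chr7:103397960-103398027, mm9), in an intron of Tenm4, took 75.4%, 33.2% and 32.3% in the same order (2.63, 2.54 to 2.71). For miR-28 wild type lay between the mutants, and for miR-708 it was level with PGKTP_AAAAA. The hairpin miR-409 kept its G-first 3p arm as the major arm in both libraries, but the A-first 5p arm took 7.50% in K566A and 0.247% in PGKTP_AAAAA. A G-first arm was also the major one in miR-296, whose A-first 5p arm took 8.72% in K566A, 0.484% in PGKTP_AAAAA and 5.70% in wild type (4.30, 4.24 to 4.36).

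Hairpins with a U-first and a C-first arm moved in both directions, even among neighbours and relatives. The U-first 5p arm of miR-15b (chr3:68813697-68813756, mm9), in an intron of Smc4, took 78.3% of its hairpin in K566A, 9.04% in PGKTP_AAAAA and 31.9% in wild type (log2 odds 5.19, 4.95 to 5.42). A pair of hairpins in introns of Nfyc, which encodes a subunit of the transcription factor NF-Y, went opposite ways. In miR-30e the U-first 5p arm took 68.9% in K566A and 26.8% in PGKTP_AAAAA (2.60), while in miR-30c-1 it took 45.9% and 91.8% (-3.72). The 5p arm of miR-30c-1 is shared with miR-30c-2, where it took 29.4% and 61.9% (-1.96). The neighbours miR-200a and miR-200b, whose C-first 5p arms share a seed, also split. The 5p arm took 62.1% in K566A and 43.4% in PGKTP_AAAAA for miR-200a (1.09), but 42.9% and 85.2% for miR-200b (-2.94). The first bases of the arms were thus the same in hairpins that differed in opposite directions.

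In all, the major arm differed between the 2 libraries in 34 hairpins, and in 23 of the 220 with at least 1000 counts. In 13 of these 23 the 5p arm led in K566A and in 10 the 3p arm did. Besides those described, they include miR-154, whose 5p share was 96.3% in K566A and 44.6% in PGKTP_AAAAA, miR-485 (87.2% and 28.95%), miR-339 (32.6% and 86.3%) and miR-194-2 (30.95% and 96.9%).

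**Figure D4:**
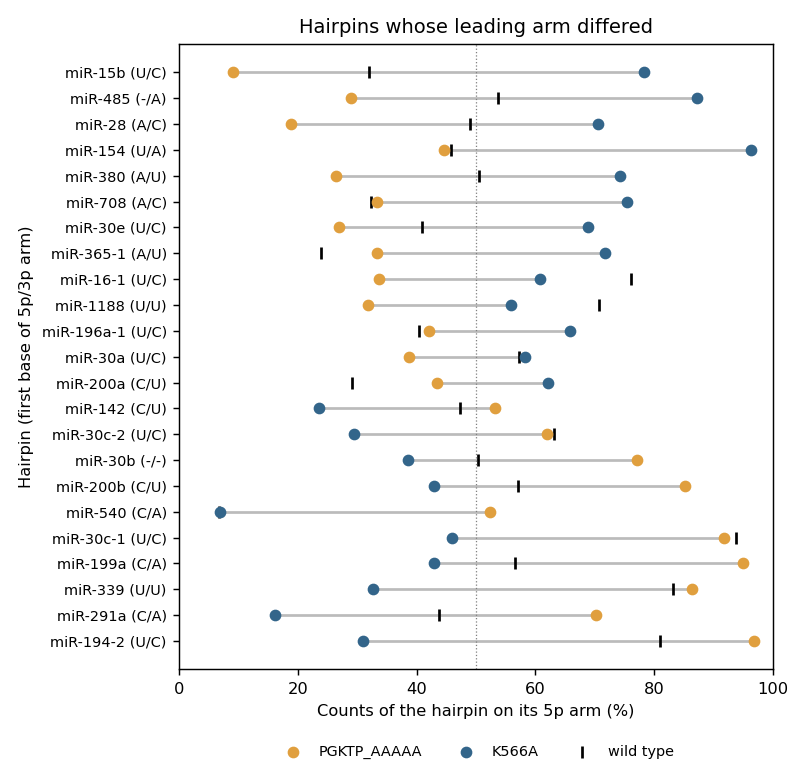
Share of a hairpin's counts on its 5p arm (x axis, %) in K566A, PGKTP_AAAAA and wild type, for the 23 hairpins with at least 1000 counts whose leading arm differed between the mutants; letters give the first base of the 5p and 3p arm, and a dash an arm without a matched sequence. Shares run from 6.92% to 96.3% in K566A and from 9.04% to 96.9% in PGKTP_AAAAA, and the dotted line marks 50%.

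The largest shifts towards the 5p arm in K566A included 2 tumour-suppressor hairpins whose 3p arm was at 0 there. In let-7i the 5p arm had 4956 counts in K566A and 859 in PGKTP_AAAAA, and the 3p arm 0 and 7. With the 0 taken as 3 counts in that library, its 5p odds were at least 13.5-fold higher in K566A, and those of miR-34c likewise, on 3p counts of 0 and 10. Counting error in PGKTP_AAAAA widens this: the exact 95% lower limits of the log2 odds ratio were 3.05 for let-7i and 3.18 for miR-34c. In miR-19b-1 the 5p arm was at 0 in PGKTP_AAAAA, which gives a difference of at least 6.14-fold (exact lower limit 2.26 in log2). With counts on both arms, the log2 odds were 6.87 for miR-1249, on 1 count of the 5p arm in PGKTP_AAAAA, 5.45 for miR-1199, 5.03 for miR-409 and 5.02 for miR-154. The value of miR-1199 rests on 1 count of its 3p arm in K566A (95% interval 2.90 to 10.8). The largest shifts towards the 3p arm were in miR-205 (at least 27.1-fold, with its 3p arm at 0 in PGKTP_AAAAA and an exact limit of -4.43 in log2), miR-145 (-6.91), miR-194-2 (-6.11), miR-129-2 (-5.77), miR-143 (-5.58), miR-744 (-5.13), miR-125a (-5.10) and miR-129-1 (-4.90). In miR-744, in an intron of Map2k4, the 3p arm took 8.12% of counts in K566A and 0.252% in PGKTP_AAAAA. The hairpins miR-129-1 and miR-129-2 share their 5p arm, as do other numbered copies, so their values are not separate.

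By cluster and family, miR-302 and most let-7 members lay above the median ratio, and members of the imprinted Dlk1-Dio3 region spread to both sides of it. Over all tested miRNAs 15.3% were called higher and 26.9% lower. All 4 tested members of the miR-302 cluster list, of 10 listed, were called higher in K566A: miR-302b-3p, miR-302d-3p (747 CPM in K566A and 71.6 CPM in PGKTP_AAAAA, 1.57), miR-302a-3p (1.22) and miR-367-3p (1.47). The last, at 18.7 and 1.93 CPM, reached the 10 CPM mean only through K566A, where it was high, so its call is no support. At a mean of 100 CPM 3 members remained, all called higher, where ratios are relative to the median of the miRNAs tested there. Of these, miR-302d-3p and miR-302a-3p (247 and 30.1 CPM) reached that mean only through K566A, so the limit of 100 CPM adds no support to their calls. Both passed 10 CPM in each library. Of 13 tested miR-290 cluster members, 1 was higher, miR-290-3p at 1.07, and 4 were lower, down to miR-291a-5p at -3.58, with a median of -0.08. Of 13 tested members of the let-7 list, the family known for opposing pluripotency, 6 were higher and 0 lower, with a median of 1.11. Of these 6, let-7a-1-3p and let-7c-2-3p, with equal counts (23.8 and 2.49 CPM), and let-7e-3p (31.2 and 1.204 CPM) were tested only through their K566A level. At a mean of 100 CPM 3 were higher, with a median of 0.86. These 3, let-7d-5p (286 and 35.2 CPM), let-7f-5p and let-7i-5p, reached that mean only through K566A. The limit of 100 CPM thus adds no support to their calls. Among the list's members, let-7f-5p had 438 CPM in K566A and 47.5 CPM in PGKTP_AAAAA (1.39), let-7i-5p 332 and 34.5 CPM (1.46), let-7a-5p 434 and 70.4 CPM (0.81, not called) and let-7d-3p 421 and 141.6 CPM (-0.24, not called). The let-7 range was -0.77 for let-7e-5p to 2.89 for let-7e-3p, the 2 arms of 1 hairpin. On the plain CPM ratio the higher and lower calls were 4 and 0 for miR-302, 9 and 2 for miR-290 and 12 and 0 for let-7, against 65% and 9.54% of all tested miRNAs.

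The Dlk1-Dio3 list, from the imprinted region on chromosome 12, had 8 of 52 tested members higher and 21 lower, against 15.3% and 26.9% of all tested miRNAs. The share of higher calls was thus near that of all miRNAs. The median was -0.45, and the range was from miR-134-5p at -4.30 to miR-341-5p at 3.65. Of the higher calls, miR-341-5p (49.5 and 1.12 CPM), miR-409-5p, miR-154-5p, miR-299-5p and miR-540-3p reached the 10 CPM mean only through K566A. Of the lower calls, miR-136-5p, miR-665-3p and miR-666-5p reached it only through PGKTP_AAAAA. The calls of these members are no support. Its abundant members divided: miR-127-3p (56004 CPM in K566A and 12760 CPM in PGKTP_AAAAA) and miR-541-5p were not called. For miR-433-3p the levels were 10266 and 9454 CPM (-1.69), and for miR-381-3p they were 5372 and 3893 CPM (-1.35). Both of these were called lower relative to the median ratio, though their plain CPM was higher in K566A. At a mean of 100 CPM the list had 4 higher and 13 lower members and a median of -1.31. The 4 higher ones reached that mean only through K566A, and miR-323-3p and miR-770-3p only through PGKTP_AAAAA. On the plain CPM ratio 28 members of the list were higher and 6 lower, against 65% and 9.54% of all tested miRNAs.

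The other lists follow with their counts on the median-centred scale, where 15.3% of all tested miRNAs were higher and 26.9% lower. The share of higher calls in miR-17-92, and both shares in the differentiated tissue list, were near these and are no result about those lists. In miR-17-92 with its paralogs, known as promoters of proliferation, 3 of 22 were higher and 1 lower (median 0.43), from miR-106b-3p at -1.55 to miR-93-3p at 2.18. In the miR-15/16 family 1 of 10 was higher, miR-15b-5p at 1.72, and 1 lower, miR-15b-3p at -3.47, so both calls were arms of 1 hairpin (median 0.01). In the miR-30 family 2 of 10 were higher and 4 lower (-0.40), among them miR-30c-5p (-1.39, though its plain CPM was higher in K566A, at 378 and 282) and miR-30d-5p (143.5 and 179 CPM, -2.13). Of the 2 higher, miR-30b-3p (73.9 and 4.94 CPM) reached the 10 CPM mean only through K566A. In the cluster of miR-183, miR-96 and miR-182, 1 of 5 was higher and 2 lower (0.29): miR-183-5p (8447 and 5698 CPM, -1.24) and miR-182-5p (4417 and 3447 CPM, -1.45) were the lower ones, though higher in K566A by plain CPM, while miR-96-5p (0.29) was not called. At a mean of 100 CPM this median turned to -1.34, with 0 higher, since the minor arms miR-183-3p (38.7 and 3.41 CPM) and miR-182-3p (35.9 and 7.74 CPM) drop out. In the miR-200 family 0 of 7 were higher and 1 lower, miR-200b-5p at -2.28 (median 0.26). The 19 tested members of the Sfmbt2 cluster had no call and a median of 0.58. Many, such as miR-466a-3p (33.7 and 5.94 CPM), reached the 10 CPM mean only through K566A, so this median is no support for a difference. Some have near-equal levels, such as miR-466b-3p (18.4 and 3.41 CPM) and miR-466c-3p (18.3 and 3.37 CPM), and are not separate members. At a mean of 100 CPM 1 Sfmbt2 member was lower. Of 4 tested miRNAs made without Drosha or Dicer 2 were lower, miR-877-3p and miR-320-3p (-1.17, though higher in K566A by plain CPM, at 728 and 468). Fibroblast markers had 2 of 8 higher and 1 lower (0.34), and differentiated tissue markers 2 of 15 higher and 4 lower (0.32). On the plain CPM ratio these 8 lists had 20, 9, 6, 3, 5, 16, 2 and 6 higher calls in the order given, and the differentiated tissue list had 11, with at most 1 lower call in each. Of all tested miRNAs 65% were higher and 9.54% lower on that ratio.

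**Figure D5:**
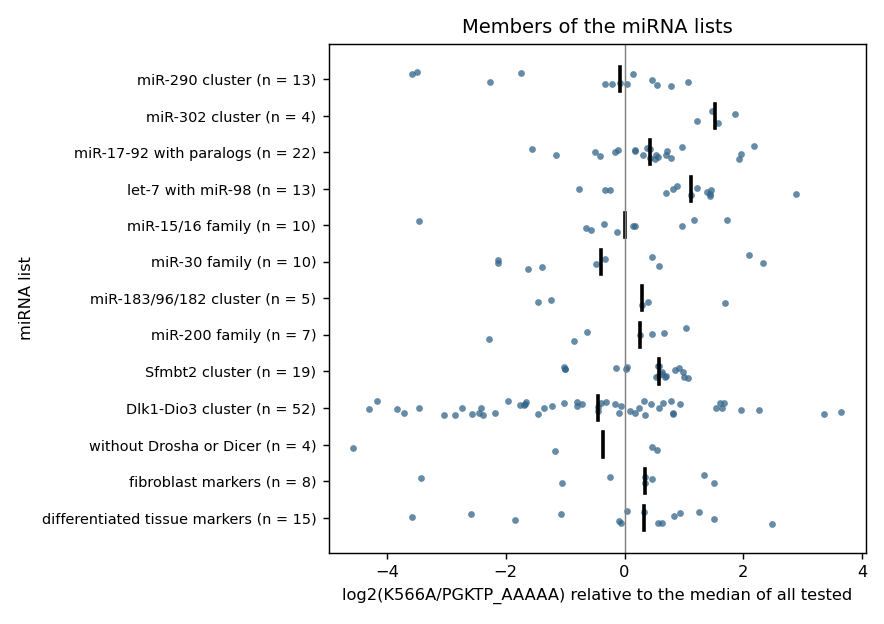
Relative log2 ratio of K566A over PGKTP_AAAAA (x axis) for the tested members of 13 miRNA lists (y axis), with a bar at each list's median. The 4 miR-302 members lie above 0, from 1.22 to 1.86, while the 52 Dlk1-Dio3 members spread from -4.30 to 3.65. The highest of these, miR-341-5p, was tested only through its K566A level.

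Set beside the other 4 Ago2 libraries, some miRNAs were low in both mutants. Of 152 miRNAs that averaged 100 CPM or more across the 6 Ago2 libraries, 6 were below 0.5 times the lowest of the other 4 in both K566A and PGKTP_AAAAA, and 0 were above 2 times the highest in both. The lowest was miR-666-5p, at 8.25 CPM in K566A and 12.6 CPM in PGKTP_AAAAA, where the others ranged from 63.4 to 273 CPM. Next came miR-323-3p, at 79.97 and 251 CPM against 1110 to 2132 CPM. Then followed miR-382-5p (39.0 and 80.7 CPM, others 252 to 422), miR-411-3p (50.3 and 118 CPM, others 344 to 602), miR-379-5p (184 and 202.9 CPM, others 587 to 750) and miR-501-3p (23.3 and 51.4 CPM, others 121 to 285). The first 5 of these are in the Dlk1-Dio3 region, and miR-501-3p is X-linked. The list of that region is large, with 52 of the 346 tested miRNAs. Its share of the 152 was not counted, so the 5 are no result about the region. K566A was below PGKTP_AAAAA in each of the 6. The miRNAs that came nearest to being high in both were miR-25-3p (19991 and 5032 CPM, others 1805 to 3372), miR-672-5p, miR-92b-5p, miR-196a-5p, miR-26a-5p and miR-126-3p. These levels are plain CPM, and the 2 libraries also had the lowest totals of the 6, whose part in the shared low levels was not tested.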

How the data were processed

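The data are the deposited counts of 1078 mature miRNA loci in 7 small-RNA libraries made after anti-Flag immunoprecipitation, with mm9 coordinates as in the file headers. Raw read counts per locus were deposited by the authors, per the file headers and values. The submitters' processing notes name CASAVA 1.8.2, TopHat2 2.0.9 and mm9. The sources used here do not state the counting program, the annotation release, the use of strand or how reads with several matches were handled. The values of 12 tested miRNAs at loci overlapping another are therefore uncertain. No column belonged to another sample (0 columns left out).

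Each mature name was counted once by its highest locus, and CPM were computed here from the deposited counts. Ratios were centred on the median of the tested miRNAs and called by exact conditional (Clopper-Pearson) 95% intervals past 2-fold. Arms of 1 name with starts within 150 nt on 1 chromosome formed a hairpin, and the odds ratio of its arms was tested likewise, with Woolf's interval where all 4 counts reached 500. Python 3.11.15, scipy 1.17.1 and edgeR 4.0.16 (for TMM factors only) were used, and the scripts were tested on simulated data. Sequences were RefSeq's: 755 names matched by name, 34 by symbol, and 10 were dropped because the length differed from the deposited one. Host genes came by name from the GENCODE annotation.

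The named miRNAs were the 10 most abundant, the 10 largest called rises and falls, the 8 nearest to the median ratio, the 6 lowest and 6 highest in both libraries against the other 4, the 8 hairpins with the largest called shifts each way, up to 4 abundant members and the extremes of each list, and the hairpins at the extremes of each first-base comparison. Hairpins whose leading arm differed, seed families and single hairpins beyond that rule were chosen after their values were seen. The members and lists were chosen with earlier results of these data known. Other scalings, filters, fold limits, thinning and treatments of copies were tried.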

Additional observations from a re-analysis of the deposited data

How the results depend on the processing

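No paired analysis was possible because each group has 1 library. The counts of calls depended on the scaling and on the limits. Against 53 higher and 93 lower miRNAs, plain CPM gave 225 and 33, the total without miR-292-5p gave 93 and 75, and median-of-ratios factors over the 6 Ago2 libraries gave 83 and 79. A minimum of 100 CPM gave 24 and 54, no minimum gave 114 and 151, and a 4-fold limit gave 11 and 52. With that limit the minor-arm odds were higher in 42 hairpins and lower in 32, and with the major arm from the other 4 Ago2 libraries in 83 and 45, against 68 and 60. By first base, higher and lower calls with a minimum of 100 CPM were 9 and 20 for U, 10 and 8 for A, 2 and 15 for C, and 0 and 6 for G. With plain CPM they were 87 and 11, 59 and 3, 33 and 12, and 8 and 5. In major arms alone A-first miRNAs had 5 and 9, C-first miRNAs 1 higher and G-first miRNAs 1 higher, and without the Dlk1-Dio3 list 7 G-first miRNAs were lower. With a mean of 100 CPM the list median of the cluster of miR-183, miR-96 and miR-182 turned from 0.29 to -1.34. The counts with TMM factors (60 and 90), summed loci (52 and 91), merged names (51 and 95) and PGKTP_AAAAA thinned to the K566A total (50 and 89), stayed within 1.5 times. With plain CPM 7 named miRNAs turned from lower to higher on the log2 scale: miR-182-5p (0.36), miR-183-5p (0.57), miR-30c-5p (0.42), miR-320-3p (0.64), miR-381-3p (0.46), miR-433-3p (0.12) and miR-672-5p (0.59). With the plain CPM ratio the shift of 1.81 in the median is left in, which is how that scaling is built. Depth limits arms with few counts: 0 in K566A allows 0.201 CPM.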
